A study of Mus musculus with 13 samples.

Results

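The genes described here are 10 transcripts that mark tissue-resident, perivascular macrophages in mouse tissues: *Lyve1*, *Timd4*, *Folr2*, *Mrc1*, *Cd163*, *F13a1*, *Cbr2*, *Clec10a*, *Retnla* and *Mgl2*. They were chosen by name, as the rows of the count table whose Ensembl identifier maps to a listed symbol, and all 10 were found among 33618 identifiers. All 10 were also among the 16753 genes that passed a filter on low counts and were tested. Bulk RNA-Seq of whole parametrial white adipose tissue (pmWAT), the visceral depot beside the uterus, was available for 7 female mice labelled *Lmna* fl/fl and 6 labelled *Lmna* iADKO, with 1 library per mouse. The iADKO mice carried floxed *Lmna* alleles and *Adipoq*-CreERT2, a tamoxifen-activated Cre driven by an adipocyte promoter, so the deletion was directed to adipocytes and not to macrophages. The fl/fl controls carried the same floxed alleles without Cre. Mice of both genotypes received tamoxifen at 50 mg/kg for 5 days at 12 to 14 weeks of age, and tissue was taken 2 weeks later. A group with Cre and no floxed allele was not analysed here.

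Resident macrophages of adipose tissue sit along vessels, where they take up macromolecules, dying cells and iron-carrying complexes through scavenger and lectin receptors. They are largely maintained locally under the growth factor CSF1, in contrast to the monocyte-derived, lipid-associated macrophages that accumulate around stressed adipocytes. Several of their genes, *Mrc1*, *Clec10a*, *Mgl2* and *Retnla* among them, are also known targets of IL-4 and IL-13 signaling through STAT6. No member is exclusive to these cells. *Lyve1* is a classical marker of lymphatic endothelium, *Timd4* is high in peritoneal macrophages, and *Clec10a* and *Mgl2* are found on some dendritic cells.

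The count table assigned 18854223 to 19776491 reads to genes in each library, and values are given as CPM (counts scaled to a common library size) after TMM scaling, with factors of 0.898 to 1.02 for the controls and of at least 1.04 for iADKO. Members were covered by between 76 counts (*Timd4*) and 9419 counts (*Mrc1*) in a library. Across the whole gene, *Lmna* averaged 84.5 ± 7.27 CPM in the 7 controls and 96.7 ± 11.5 CPM in the 6 iADKO libraries (± SD, as throughout) (log2 fold change 0.20, SE 0.078, edgeR adjusted p = 0.0721). The floxed exons are a small part of the gene and adipocytes are only some of the cells, so this value does not check the labels, and every direction below rests on the libraries as labelled. Adipocyte markers were checked against the tissue label and were present in every library, with a summed level of 14453 to 25985 CPM in fl/fl and 9117 to 16109 CPM in iADKO.

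Of the 10 resident macrophage genes, 5 were higher in the libraries labelled iADKO (*Folr2*, *Retnla*, *Mrc1*, *Clec10a* and *F13a1*) by edgeR's quasi-likelihood test with Benjamini-Hochberg adjustment over all genes tested. Their increases were between 1.21-fold and 1.47-fold. No member was lower, either after adjustment or at an unadjusted p under 0.05, and DESeq2's Wald test also called none lower. Among all genes tested, 14.5% were called higher and 16.2% lower, 30.8% in all. The median log2 fold change was 0.28 over the 10 members and 0.036 over all genes tested. Scaling to library totals without TMM was an alternative that moved the median of all genes to 0.24. With it, 7 members and 7373 of the 16753 genes tested were higher. Of all calls, 85.2% were then upward, against 47.2% with TMM. For no member did the genotypes fail to overlap, against 6.63% of all genes tested (2.79% with every iADKO library above every control). In bulk tissue, more cells of a type and more RNA per cell cannot be told apart, and the counts are shares of each library's total RNA, in which adipocyte markers were lower in iADKO.

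**Figure D1:**
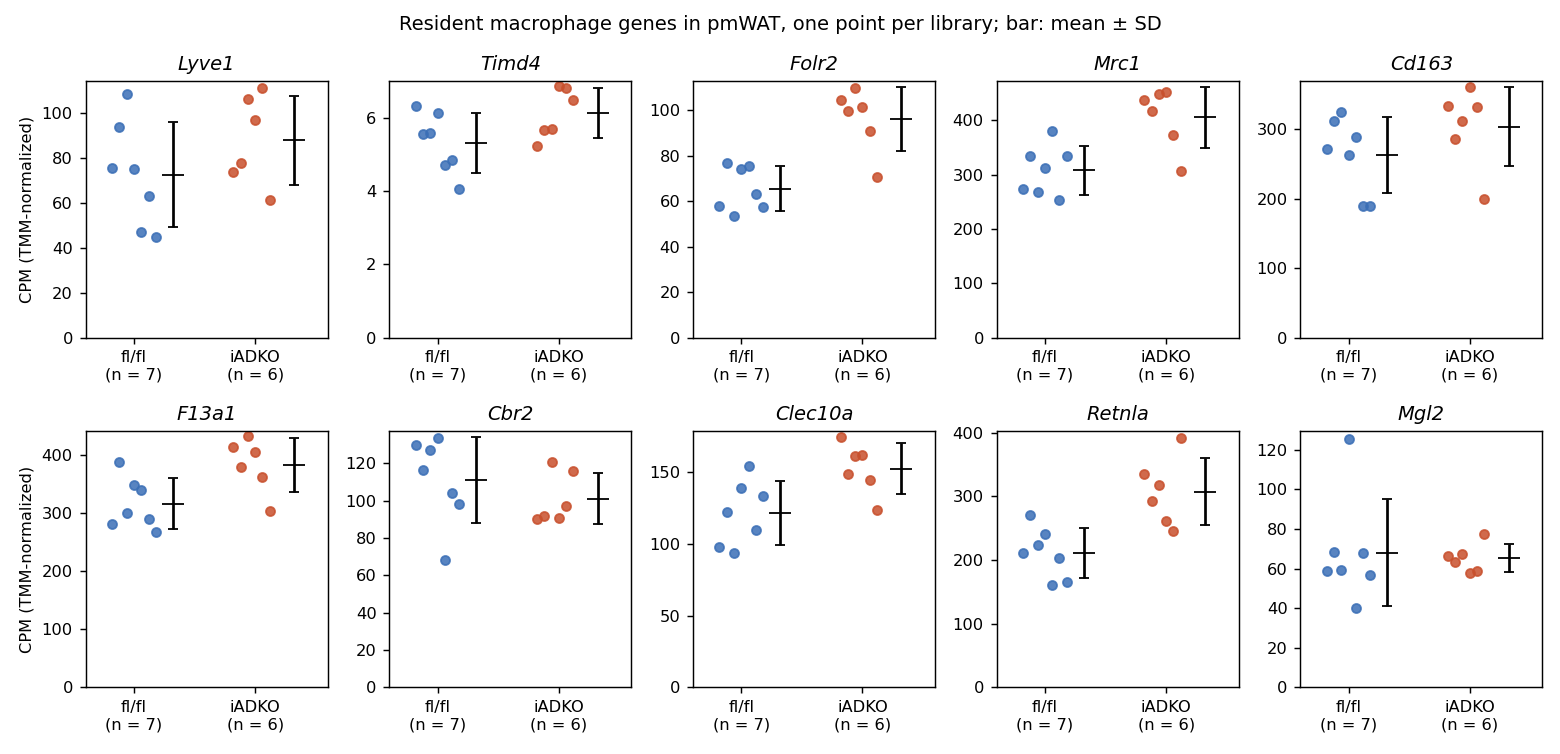
TMM-normalized CPM (vertical axes, each starting at 0) of the 10 resident macrophage genes in the 7 libraries labelled fl/fl (blue) and the 6 labelled iADKO (red), 1 point per library, with bars for the mean ± SD. *Folr2*, *Retnla* and *Mrc1* are shifted upward in iADKO with 4 or 5 of 6 points above every control, while *Cbr2* and *Mgl2* have no iADKO point above every control.

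Uptake receptors made up the first group. *Folr2* (ENSMUSG00000032725, chr7:101489195-101506401 of GRCm39, minus strand) encodes folate receptor beta, a folate-binding surface protein of resident macrophages. Its level ran from 53.7 to 76.9 CPM in fl/fl (median 63.2) and from 70.8 to 109.7 CPM in iADKO (median 100.5). In 5 of 6 iADKO libraries it lay above every control, and the sixth, iADKO replicate 6, lay inside the control range. The log2 fold change was 0.55 (SE 0.11, edgeR adjusted p = 0.00273), with p = 0.0041 by an exact permutation test (two-sided, 1716 possible assignments of the labels). The smallest p that this test can give is 0.000583.

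*Mrc1* (ENSMUSG00000026712, chr2:14234151-14336926, plus strand) encodes the mannose receptor CD206, which takes up mannosylated glycoproteins and collagen fragments. It ran from 253 to 380 CPM in fl/fl (median 312) and from 307 to 453 CPM in iADKO (median 426). The 4 highest libraries were all iADKO and the fifth was fl/fl replicate 5, while iADKO replicate 6 lay inside the control range. The log2 fold change was 0.40 (SE 0.11, edgeR adjusted p = 0.0147; exact permutation p = 0.0087).

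*Cd163* (ENSMUSG00000008845, chr6:124281606-124307560, plus strand) encodes the scavenger receptor for hemoglobin-haptoglobin complexes. It ran from 189 to 326 CPM in fl/fl (median 272) and from 199 to 360 CPM in iADKO (median 322). The spread within each genotype covered most of the range of the other, and the log2 fold change of 0.21 (SE 0.15) did not pass the threshold (edgeR adjusted p = 0.319). The lowest 3 libraries were fl/fl replicates 6 and 7 and iADKO replicate 6.

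*Lyve1* (ENSMUSG00000030787, chr7:110448585-110462460, minus strand) encodes a hyaluronan receptor. Its level ran widely between mice, from 44.7 to 108.6 CPM in fl/fl (median 74.9) and from 61.2 to 111 CPM in iADKO (median 87.4). Only 1 iADKO library was above every control. The log2 fold change was 0.28 (SE 0.21, edgeR adjusted p = 0.340), about as large as that of *F13a1* but with a wider spread between mice.

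*Timd4* (ENSMUSG00000055546, chr11:46701620-46735177, plus strand) encodes TIM-4, a phosphatidylserine receptor for apoptotic cells. It was the least abundant member, at 4.06 to 6.33 CPM in fl/fl (median 5.58) and 5.24 to 6.87 CPM in iADKO (median 6.09). In 3 of 6 iADKO libraries it was above every control, and the difference did not pass the threshold (log2 fold change 0.20, SE 0.12, edgeR adjusted p = 0.192; exact permutation p = 0.0798). At 76 to 143 counts per library, its values also carry the most counting error of the 10.

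*Clec10a* and *Mgl2* encode the galactose-type C-type lectins MGL1 (CD301a) and MGL2 (CD301b), which bind terminal galactose and N-acetylgalactosamine. They are neighbours on the plus strand of chromosome 11 (*Mgl2*, ENSMUSG00000040950, chr11:70020954-70028376; *Clec10a*, ENSMUSG00000000318, chr11:70047023-70061660), and they differed in these libraries. *Clec10a* ran from 93.9 to 154 CPM in fl/fl (median 122) and from 124 to 175 CPM in iADKO (median 155), and 3 of 6 iADKO libraries were above every control. Its log2 fold change was 0.33 (SE 0.12, edgeR adjusted p = 0.0445; exact permutation p = 0.0233). *Mgl2* ran from 40.1 to 125 CPM in fl/fl (median 59.4) and from 57.9 to 77.3 CPM in iADKO (median 64.8). All 6 iADKO libraries lay within the control range, and the log2 fold change was -0.063 (SE 0.20, edgeR adjusted p = 0.833). A single control, fl/fl replicate 4, held 125 CPM where the other 6 held 40.1 to 68.5 CPM, and without it the *Mgl2* log2 fold change was 0.15. A difference between the changes of the 2 lectins was not tested directly.

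Secreted products and an enzyme made up the rest. *Retnla* (ENSMUSG00000061100, chr16:48662895-48664824, plus strand) encodes the secreted protein RELM alpha, a classical product of IL-4-stimulated macrophages. It ran from 160 to 271 CPM in fl/fl (median 211) and from 246 to 391 CPM in iADKO (median 305). In 4 of 6 iADKO libraries it was above every control, and all 6 were above the control median. The log2 fold change was 0.55 (SE 0.13, edgeR adjusted p = 0.00788; exact permutation p = 0.0041). The highest value of all 13 libraries, 391 CPM, was in iADKO replicate 6, the library with the lowest *Folr2*, *Mrc1*, *Cd163*, *F13a1*, *Clec10a* and *Lyve1* of its genotype.

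*F13a1* (ENSMUSG00000039109, chr13:37051152-37234277, minus strand) encodes the A subunit of coagulation factor XIII, a transglutaminase that crosslinks fibrin. It ran from 267 to 387 CPM in fl/fl (median 300.5) and from 304 to 433 CPM in iADKO (median 392). In 3 of 6 iADKO libraries it was above every control. The log2 fold change was 0.28 (SE 0.099), and the call was close to the threshold (edgeR adjusted p = 0.0479; exact permutation p = 0.0274).

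*Cbr2* (ENSMUSG00000025150, chr11:120620312-120622940, minus strand) encodes a carbonyl reductase that is used as a marker of resident macrophages and also carries the older name adipocyte protein P27. It ran from 68.4 to 134 CPM in fl/fl (median 116) and from 90.1 to 121 CPM in iADKO (median 94.4). Only 1 of 6 iADKO libraries was above the control median, and all 6 lay within the control range, whose lowest value was in fl/fl replicate 5. The log2 fold change was -0.14 (SE 0.14, edgeR adjusted p = 0.469). Leaving out fl/fl replicate 5 together with iADKO replicate 6, the libraries whose pan-macrophage levels lie nearest the other genotype, *Cbr2* passed the threshold as the only member called lower (log2 fold change -0.30, edgeR adjusted p = 0.0254), and the 5 members called higher were the same. These libraries were chosen after seeing the data for lying nearest the other genotype, which widens the gap between genotypes by construction, and 23.3% of all genes tested were then called lower against 16.2% with all libraries.

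The calls of *Clec10a* and *F13a1* rested on a narrow margin. When each mouse was left out in turn, *Folr2*, *Mrc1* and *Retnla* passed in all 13 fits, *Clec10a* in 4 of 13 and *F13a1* in 3 of 13. The labels give the same batch date for all libraries. Ranges were drawn here from the mouse numbers that name the libraries, and only 2 ranges hold both genotypes. Where to cut was a choice, and other cuts were not tested. The number of iADKO replicate 1 stands apart from the rest of its range, which holds 3 fl/fl and 2 iADKO libraries. That gap is as wide as one used elsewhere to divide ranges. The labels do not say whether the ranges mark cohorts. With these ranges as a block, no member passed after adjustment (4 at an unadjusted p under 0.05, 0 lower), and calls among all genes fell to 2011 from 5154. Libraries in ranges with a single genotype add nothing to the genotype difference in that fit. There the log2 fold change was 0.55 for *Retnla* (edgeR adjusted p = 0.0515) and 0.48 for *Folr2* (edgeR adjusted p = 0.0535). It was 0.36 for *Mrc1*, 0.33 for *Clec10a* and 0.18 for *F13a1* (edgeR adjusted p = 0.121, 0.154 and 0.326). Within the range with 3 fl/fl and 2 iADKO libraries, the log2 difference was 0.72 for *Folr2*, 0.55 for *Mrc1*, 0.42 for *Retnla*, 0.63 for *Clec10a* and 0.31 for *F13a1*. In the range with 2 libraries of each genotype (fl/fl replicates 4 and 5, iADKO replicates 4 and 6), it was 0.18, 0.12, 0.70, -0.046 and 0.029 in the same order.

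The sequences before the start sites of the 2 lectins and of *Retnla* are shown because these 3 promoters, and no other member's, hold the letters GAGGAAGT, a long form of the core recognized by the macrophage factor PU.1. Searched on both strands, these letters were in 2.08% of the 250-base windows before the canonical starts of 21770 protein-coding genes. Each line gives the 250 bases before the start 5′ to 3′ in the gene's own direction, read from GRCm39, with motif matches in capitals. The window of *Clec10a* is chr11:70057218-70057467 and lies inside the annotated gene, overlapping one of its annotated exons. The windows of *Mgl2* (chr11:70020704-70020953) and *Retnla* (chr16:48662645-48662894) overlap no annotated gene.
Clec10a: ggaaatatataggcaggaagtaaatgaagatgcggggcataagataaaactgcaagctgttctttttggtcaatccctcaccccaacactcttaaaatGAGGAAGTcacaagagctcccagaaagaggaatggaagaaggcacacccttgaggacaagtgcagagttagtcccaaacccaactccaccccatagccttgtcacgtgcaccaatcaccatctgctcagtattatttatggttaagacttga
Mgl2: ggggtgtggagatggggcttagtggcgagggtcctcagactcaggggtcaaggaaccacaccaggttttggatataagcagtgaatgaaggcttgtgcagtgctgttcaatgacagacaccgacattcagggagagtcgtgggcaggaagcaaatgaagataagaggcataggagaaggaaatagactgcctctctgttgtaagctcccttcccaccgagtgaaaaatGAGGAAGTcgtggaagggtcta
Retnla: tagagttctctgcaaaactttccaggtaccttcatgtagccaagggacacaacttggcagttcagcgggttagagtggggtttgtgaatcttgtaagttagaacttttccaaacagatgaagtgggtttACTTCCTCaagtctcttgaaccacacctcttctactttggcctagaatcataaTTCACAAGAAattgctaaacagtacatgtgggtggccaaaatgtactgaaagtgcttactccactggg
The match ended 145 bases before the start in *Clec10a*, 15 bases before it in *Mgl2* and 114 bases before it in *Retnla*, where it is on the opposite strand. The longest run that the *Clec10a* and *Mgl2* windows had in common was 14 bases, AAAATGAGGAAGTC, which contains the match. *Retnla* also held the pattern bound by STAT6, TTC and GAA with 4 bases between them, 59 bases before its start, without overlap with the first match, and 5.89% of all windows held that pattern. The element TGCTGAC, part of the site of MAF factors, in 3.24% of windows, was in *Timd4* alone of the members, 33 bases before its start and on the opposite strand. The other 6 members held none of the 3 patterns in these windows. The matches are letters in a window and were not measured as binding sites. Among the 3 genes with GAGGAAGT, *Clec10a* and *Retnla* were called higher and *Mgl2* was not. Among the members without it, *Folr2*, *Mrc1* and *F13a1* were called higher and *Lyve1*, *Timd4*, *Cd163* and *Cbr2* were not, beside 14.5% of all genes tested. A link between the letters and the changes was not tested.

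Levels were compared between members per length, as CPM per kilobase of annotated exon (RPKM). *Retnla* was highest, at 341 ± 63.8 RPKM (SD, n = 7) in fl/fl and 497 ± 85.6 RPKM (SD, n = 6) in iADKO, followed by *Cbr2* at 83.5 ± 17.4 and 76.0 ± 10.2 RPKM. *Retnla* exceeded *Cbr2* in every library, with no overlap of their ranges, whereas the range of *Cbr2* met that of *Cd163* in fl/fl. *Cd163*, *F13a1*, *Clec10a*, *Folr2* and *Mrc1* followed within a narrow band of mean levels, 39.3 to 47.4 RPKM in fl/fl and 51.8 to 60.3 RPKM in iADKO. Neighbours in that band overlapped in their ranges in each genotype, so their order is not resolved by the spread between mice. By this length, *Folr2* was number 6 of the 10 in fl/fl and number 3 in iADKO, above *Clec10a* in all 6 iADKO libraries but in only 4 of 7 controls. The order also depends on the length chosen. Annotated exons covered 6798 bases for *F13a1*, 1593 for *Folr2* and 2899 for *Clec10a*, against canonical transcripts of 3954, 1098 and 2476 bases. Levels by canonical length were not computed, so ranks among these members hold for annotated exon length only. *Mgl2* (29.7 ± 11.7 and 28.4 ± 3.09 RPKM) and *Lyve1* (17.4 ± 5.62 and 21.1 ± 4.75 RPKM) came next, with overlapping ranges. *Timd4* was lowest at 1.34 ± 0.206 and 1.55 ± 0.172 RPKM, below *Lyve1* in every library.

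The libraries were strand-specific, but whether the counting used strand is not given in the sources used here, so some reads of these genes could have been counted elsewhere. Of the 100-base windows of the canonical *Folr2* transcript, 50.8% were also found in *Gm10602*, an antisense gene over the same exons. *Gm10602* was at 6.93 CPM in fl/fl and 6.94 CPM in iADKO, with a log2 fold change of 0.0025 (SE 0.17, edgeR adjusted p = 0.993). *Clec10a* and *Mgl2* shared 3.83% and 5.39% of their windows with each other, and *Cbr2* shared 7% with predicted genes. These are shares of sequence and do not measure an error of the counts. *Gm11771*, one of the predicted genes, held at most 1 count in a library. The exons of *F13a1* overlap the opposite-strand gene *Gm30489*, which was at about 1.07 CPM in fl/fl and 0.956 CPM in iADKO. The other members had no shared window.

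The members did not follow one pattern across mice. Against the fl/fl mean of each gene on the log2 CPM scale, fl/fl replicate 5 was low for *Mgl2* (-0.68), *Cbr2* (-0.67), *Lyve1* (-0.55) and *Retnla* (-0.37) but high for *Clec10a* (0.36) and *Mrc1* (0.31). In that mouse *Mgl2*, *Cbr2* and *Retnla* were at their lowest of all 13 libraries, while *Clec10a* and *Mrc1* were at their highest among controls. fl/fl replicate 7 held the lowest *Lyve1*, *Timd4*, *F13a1* and *Cd163* of all libraries. In the other direction, iADKO replicate 6 held the highest *Retnla* (0.92 above the fl/fl mean) with *Cd163* at -0.37 and *Lyve1* at -0.18.

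**Figure D2:**
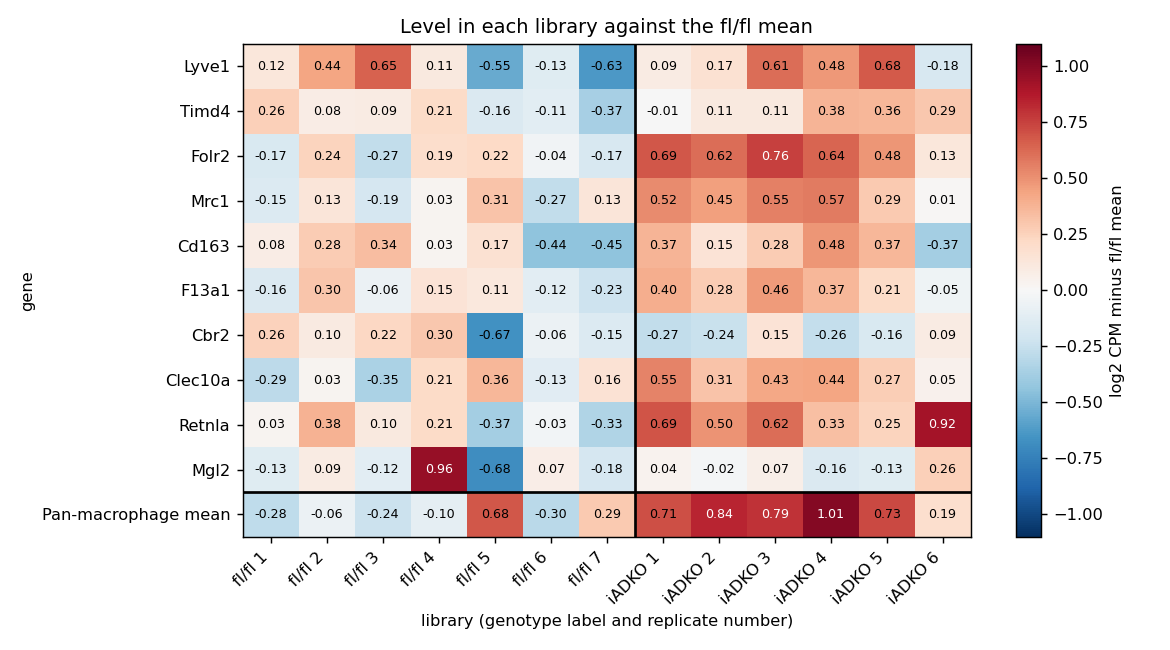
Level of each resident macrophage gene (rows) in each library (columns, fl/fl 1 to 7 then iADKO 1 to 6) as log2 CPM minus the fl/fl mean, red above and blue below, with the mean of 8 pan-macrophage genes in the bottom row. fl/fl 5 is blue for *Mgl2*, *Cbr2*, *Lyve1* and *Retnla* while its pan-macrophage mean is 0.68 above the fl/fl mean, and iADKO 6 has the highest *Retnla* with a pan-macrophage mean of 0.19.

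Pan-macrophage genes were set beside the members, since these are expressed by macrophages of any origin. Of 8 such genes, 7 were higher in iADKO and none was lower, with a median log2 fold change of 0.70. *Cd68*, a lysosomal glycoprotein, was the highest (log2 fold change 1.06, SE 0.27, edgeR adjusted p = 0.0116), and *Adgre1*, which encodes F4/80, went from 105 ± 33.3 to 186 ± 35.8 CPM (log2 fold change 0.82, SE 0.19, edgeR adjusted p = 0.0056). *Csf1r*, the CSF1 receptor, went from 388 ± 105 to 546 ± 97.3 CPM, and *Mertk*, an efferocytosis receptor, did not pass (log2 fold change 0.24, SE 0.15, edgeR adjusted p = 0.250). Every member had a smaller log2 fold change than each of *Cd68*, *Adgre1*, *Fcgr1*, *C1qa*, *C1qb* and *C1qc*. The other pan-macrophage genes did not lie above all members. *Csf1r* (log2 fold change 0.49, SE 0.16) lay below *Folr2* and *Retnla*. *Mertk* lay below *Folr2*, *Retnla*, *Mrc1*, *Clec10a*, *F13a1* and *Lyve1*. Single genes were not tested against each other. The pan-macrophage mean varied within genotype too. fl/fl replicates 5 and 7 were 0.68 and 0.29 above the fl/fl mean, and iADKO replicate 6 was 0.19 above it, against 0.71 to 1.01 for the other 5 iADKO libraries.

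**Figure D3:**
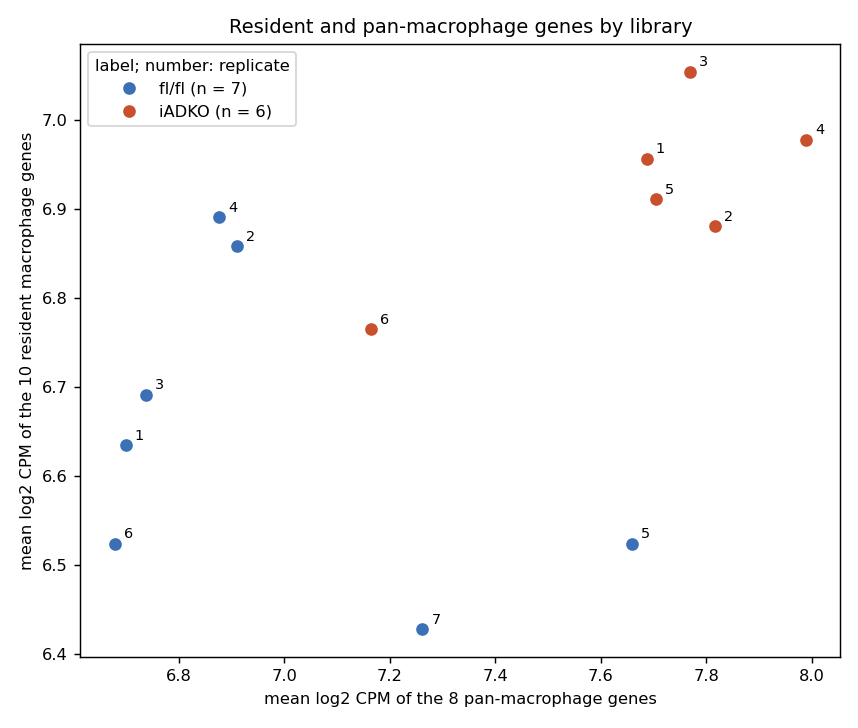
Mean log2 CPM of the 10 resident macrophage genes (vertical axis) against that of the 8 pan-macrophage genes (horizontal axis), 1 point per library with its replicate number, fl/fl in blue and iADKO in red. fl/fl 5 and fl/fl 7 lie to the right of the other controls with members at 6.52 and 6.43, and iADKO 6 lies between the genotypes at 7.16 on the horizontal axis.

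The change of each member relative to the pan-macrophage genes was tested in a fit of all genes with the pan-macrophage mean of each library as an offset. In that fit 6 of 10 members were lower in iADKO relative to the pan-macrophage genes and none was higher, also at an unadjusted p under 0.05. The 6 were *Cbr2* (log2 change -0.89, SE 0.26, edgeR adjusted p = 0.00461), *Mgl2* (-0.80), *Cd163* (-0.56), *Timd4* (-0.54), *F13a1* (-0.47) and *Clec10a* (-0.38). *Lyve1* (-0.54, SE 0.27, edgeR adjusted p = 0.0697) and *Mrc1* (-0.32, SE 0.17, edgeR adjusted p = 0.0956) did not pass, and *Folr2* (-0.19, SE 0.18) and *Retnla* (-0.17, SE 0.25) were nearest to the pan-macrophage genes. The split differed by exact permutation of the log2 ratio to the pan-macrophage mean, without adjustment. There p was 0.0082 for *Mrc1*, 0.066 for *Mgl2* and 0.072 for *Timd4*, and the other members stayed on the same side of 0.05. Among all genes tested, 73.0% were lower and 0.573% higher in the offset fit (73.6% in all), since the offset rose between genotypes, so a count of 6 in 10 does not set the members apart from other genes. The count was also sensitive to the genes in the offset. It was 1 of 10 with *Adgre1*, *Csf1r*, *Fcgr1* and *Mertk* alone (61.4% of all genes) and 8 of 10 with *Cd68* and the C1q genes alone (80.2%). It was 2 of 10 without fl/fl replicate 3 (67.9% of all genes), 8 of 10 without fl/fl replicate 5 (80.1%) and 9 of 10 without fl/fl replicate 5 and iADKO replicate 6 (84.3%).

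**Figure D4:**
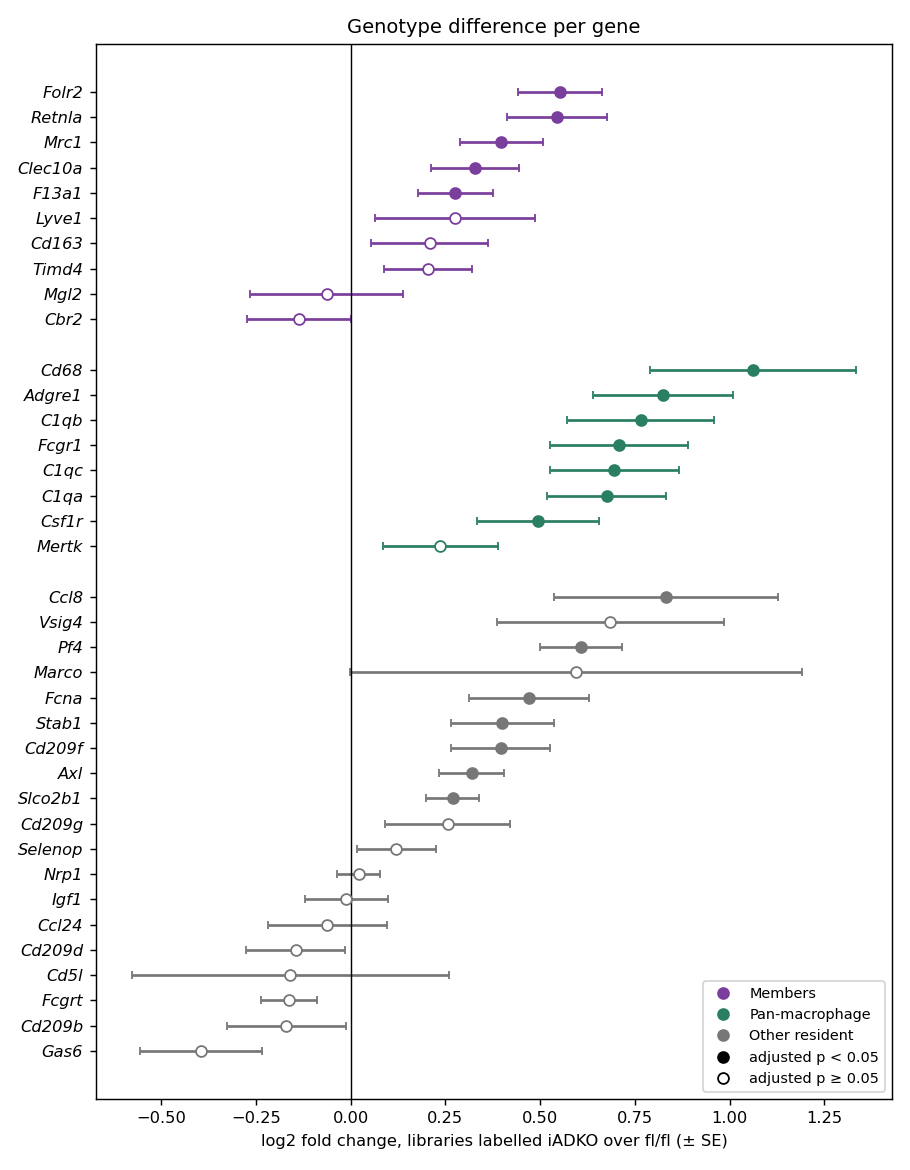
Log2 fold change of libraries labelled iADKO over fl/fl (horizontal axis) with SE bars for the 10 resident macrophage genes (purple), 8 pan-macrophage genes (green) and 19 other resident macrophage genes (gray), with filled points where the edgeR adjusted p was under 0.05. The members lie between -0.14 and 0.55, and 7 of 8 pan-macrophage genes are filled, the highest at 1.06.

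The wider program of resident macrophages was read from 20 further genes, of which 19 were tested (*Fcrls* could not be matched to an identifier). Of these, 7 were higher, none was lower and the median log2 fold change was 0.26. The highest was *Ccl8*, a chemokine (log2 fold change 0.83, SE 0.30, edgeR adjusted p = 0.0492), and *Pf4*, another chemokine, had the smallest adjusted p (log2 fold change 0.61, SE 0.11, edgeR adjusted p = 0.00143). *Stab1*, *Fcna*, *Cd209f*, *Slco2b1* and *Axl* were the others called higher. *Gas6*, the ligand of AXL and MERTK, had the lowest log2 fold change (-0.39, SE 0.16, edgeR adjusted p = 0.0754), and *Cd209b* (-0.17) and *Cd209d* (-0.15) were on the opposite side of 0 from *Cd209f* (0.40).

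Among cytokines, receptors and transcription factors that act upstream of resident macrophages, 6 of 19 tested were higher and 2 lower, with a median log2 fold change of 0.20. Of the CSF1 receptor's ligands, *Csf1* was at 94.4 to 123 CPM in fl/fl and 102 to 151 CPM in iADKO (log2 fold change 0.20, SE 0.097, edgeR adjusted p = 0.136). *Il34*, the other ligand, fell from 28.6 ± 4.99 to 19.8 ± 2.27 CPM (log2 fold change -0.53, SE 0.11, edgeR adjusted p = 0.00382). The highest log2 fold change of the list, 0.93 for the nuclear receptor *Nr4a1*, did not pass (SE 0.43, edgeR adjusted p = 0.116). The cytokine *Il10* was called higher at a very low level, 0.471 ± 0.201 and 0.901 ± 0.390 CPM, with 174 counts over all 13 libraries. Its call was close to the threshold (log2 fold change 0.92, SE 0.33, edgeR adjusted p = 0.0479). The receptor *Il10ra* was higher, as were *Tgfb1*, *Spi1* (PU.1) and *Irf8*. *Spi1* went from 31.5 ± 11.3 to 58.3 ± 8.70 CPM (log2 fold change 0.88, SE 0.20, edgeR adjusted p = 0.00552), and *Maf*, a regulator of resident macrophage genes, did not pass (log2 fold change 0.19, SE 0.12, edgeR adjusted p = 0.234). *Nr1h3*, which encodes the oxysterol receptor LXR alpha, was the other gene that fell (log2 fold change -0.30, SE 0.078, edgeR adjusted p = 0.0108).

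Of IL-4 and IL-13 response genes, 6 of 12 tested were higher and none was lower, with a median log2 fold change of 0.47. *Il1rn*, the IL-1 receptor antagonist, was the highest (log2 fold change 1.90, SE 0.49, edgeR adjusted p = 0.0118), followed by *Egr2* (1.70), *Ccl22* (1.67), *Ear2* (1.25), *Matk* (1.00) and *Stat6* (0.16). *Arg1*, the arginase of alternatively activated macrophages, was the lowest at -0.83 (SE 0.82, edgeR adjusted p = 0.464), with controls that spanned 2.74 to 107 CPM. *Il4* was at 0.409 ± 0.174 and 0.537 ± 0.171 CPM and *Il13* at or under 0.116 CPM in every library, too low to be tested in the case of *Il13*.

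Of the resistin-like paralogs of *Retnla*, *Retn* and *Retnlg* changed in opposite directions. *Retn*, which encodes resistin and is made by adipocytes, fell from 1675 ± 266 to 755 ± 234 CPM (log2 fold change -1.15, SE 0.18, edgeR adjusted p = 0.000663). *Retnlg*, a neutrophil product, rose from 8.02 ± 3.77 to 19.5 ± 7.40 CPM (log2 fold change 1.28, SE 0.32, edgeR adjusted p = 0.00947). *Retnlb*, *Clec4f* and *Asgr1* were too low to be tested, and *Asgr2* did not pass (log2 fold change 0.097).

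Genes of lipid-associated macrophages were set beside the resident genes. Of 12 tested, 6 were higher and 1 lower, with a median log2 fold change of 0.47. *Lgals3* was the highest (log2 fold change 1.15, SE 0.19, edgeR adjusted p = 0.000899), *Itgax*, which encodes CD11c, rose from 48.4 ± 32.3 to 97.8 ± 20.1 CPM (log2 fold change 1.01, SE 0.35, edgeR adjusted p = 0.0421), and *Trem2* did not pass (log2 fold change 0.86, SE 0.33, edgeR adjusted p = 0.0624). *Lpl*, which adipocytes express strongly, was the gene that fell (log2 fold change -0.87).

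Markers of other cells that could carry the members were read in the same fit. Lymphatic endothelium, a source of *Lyve1*, had 2 of 8 markers higher (*Reln* and *Fgl2*), a summed level of 152 to 303 CPM in fl/fl and 201 to 288 CPM in iADKO, and *Prox1* at 5.31 ± 2.30 and 5.95 ± 1.63 CPM (log2 fold change 0.16, SE 0.27, edgeR adjusted p = 0.669). Large peritoneal macrophages, a source of *Timd4*, had 2 of 10 markers higher and 1 lower. Their summed level was 132 to 796 CPM in fl/fl and 157 to 225 CPM in iADKO, and the control maximum was mostly *Saa3*, an acute-phase gene, at 649 CPM in fl/fl replicate 7. Without *Saa3* the sums were 116 to 183 CPM and 136 to 169 CPM. *Gata6*, also a mesothelial gene, had a log2 fold change of 0.015 (SE 0.16, edgeR adjusted p = 0.951). Dendritic cells, a source of *Clec10a* and *Mgl2*, had 4 of 8 markers higher and 2 lower, with *Flt3* at 4.03 ± 1.25 and 6.52 ± 0.940 CPM (log2 fold change 0.69, SE 0.19, edgeR adjusted p = 0.0131). Their summed level, 362 to 530 CPM in fl/fl and 212 to 344 CPM in iADKO, was mostly *Cd1d1*. That gene fell from 380 ± 68.2 to 202 ± 51.2 CPM (log2 fold change -0.92), so the sum follows *Cd1d1* and does not describe the other markers of the list.

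Other immune lists also held genes called higher, beside 14.5% of all genes tested. Of monocyte markers 4 of 5 were higher, with a summed level of 69.0 to 159 CPM in fl/fl and 139 to 193 CPM in iADKO. Higher calls were also made for 1 of 5 neutrophil, 3 of 5 T cell, 2 of 4 B cell and 3 of 4 proliferation genes, with none lower in these 4 lists. Of adipocyte markers 9 of 10 were lower, with a median log2 fold change of -0.98. *Plin1*, the lipid droplet coat protein, fell from 1810 ± 278 to 1038 ± 202 CPM and *Adipoq* from 2133 ± 287 to 1275 ± 263 CPM. Fibroblast and mesothelial markers had no calls (6 tested in each), and blood endothelial and mural markers had 1 lower of 6 (*Cdh5*, log2 fold change -0.29). No defining marker of these lists was at 0 in all libraries. The part of these cells in the members' differences was not tested.

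Genes with the pattern most like the members were ranked by Pearson correlation of log2 CPM across the 13 libraries, which include both genotypes. The candidates were 13822 genes whose mean log2 CPM reached 1, with the members themselves left out. The mean of the 10 members was most like *Arrdc3* (r = 0.91), *Rftn2* (r = 0.91) and *Arhgef3* (r = 0.90). *Mrc1* was most like *Clec4a3*, another C-type lectin of myeloid cells (r = 0.97), *Folr2* was most like *Nfatc2* (r = 0.95) and *Clec10a* most like *Eps8* (r = 0.95). *F13a1* was also most like *Nfatc2* among these candidates (r = 0.90), but its correlation with the member *Folr2* was higher (r = 0.93). *Cbr2* was most like *Cfap298* (r = 0.94), *Cd163* like *Stard8* (r = 0.94), *Lyve1* like *Angpt4* (r = 0.90), *Retnla* like *Uba2* (r = 0.89), *Mgl2* like *Scin* (r = 0.87) and *Timd4* like *Tfip11* (r = 0.85). These values are the largest of many genes, share the libraries' genotype and scaling, and are descriptions only.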

How the data were processed

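Libraries were grouped by the genotype and replicate number in the sample labels. The authors deposited raw counts per Ensembl gene for 13 libraries, and log2 values made from the same counts by DESeq2's regularized log, used in 1 alternative. The submitters' processing notes name FastQC 0.12.1, STAR 2.7.11a, DESeq2 and mm39. Libraries were strand-specific. The counting tool, its strand setting and its gene annotation are not given in the sources used here. Symbols and positions came from GENCODE on GRCm39, in which 33184 of 33618 identifiers were found.

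In R 4.3.3, genes were filtered by filterByExpr of edgeR 4.0.16 and scaled by TMM, and genotypes were compared by its robust quasi-likelihood test with Benjamini-Hochberg adjustment over 16753 genes and a threshold of 0.05. Log2 CPM used a prior count of 2. A further fit added the mean log CPM of 8 pan-macrophage genes per library as an offset. Single values were also compared by exact permutation. The tests were checked on simulated data with 200 changed genes. Libraries of a genotype differed by 8.16 to 88.8 in chi-square per degree of freedom, beyond sampling noise, so none was counted as a copy. Errors are spread between mice, and intervals from counts alone are not given.

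The members and lists were chosen with earlier results of these data known. All members are named. The naming rule allowed up to 6 genes per list (the highest, the lowest and defining genes), which some lists exceed, and the further list genes named were chosen after their values were seen. Single-gene values for some list genes are not reported here. Alternatives were DESeq2 1.42.0 size factors and Wald test, other count filters, limma 3.58.1, blocks, covariates, other pan-macrophage genes and omitted libraries. Library totals without TMM, and the omission of fl/fl replicate 5 with iADKO replicate 6, were chosen after seeing the data.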

Additional observations from a re-analysis of the deposited data

Results flagged for a closer look

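Each gene and the pan-macrophage mean were examined within each genotype, 22 groups in all, for a library far from the others, which chance gives in about 1 of 20 groups. *Mgl2* in fl/fl replicate 4, at 125 CPM, lay far above the other controls at 40.1 to 68.5 CPM. The pan-macrophage mean in iADKO replicate 6, at 7.16 on the log2 CPM scale, lay below the other iADKO libraries at 7.69 to 7.99.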

How the results depend on the processing

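*Folr2*, *Mrc1* and *Retnla* were called higher in each fit that left out a single mouse. The number of members called higher was then 3 to 5, with 1769 to 3319 of all genes called higher. The member count was 3 without fl/fl replicate 1, 3 or 6 or iADKO replicate 1, 2, 3, 4 or 5. It was 3 with DESeq2's size factors in edgeR (2134 of 16753 genes higher) and 3 with no filter on low counts (1811 of 33618). It was 0 with the animal-number ranges as a block (824 of 16753) and 1 (*Retnla*) with the pan-macrophage mean as a covariate (98 of 16753). The number called lower was 1 without fl/fl replicate 5 and iADKO replicate 6 (23.3% of all genes). It was 0 in the other alternatives (0.651% to 19.7%). The number lower relative to pan-macrophage genes, 6, was 2 to 8 when a mouse was left out (64.2% to 80.1% of all genes). It was 3 with no filter (36.3%), 1 with the animal-number block (31.2%) and 1 with *Adgre1*, *Csf1r*, *Fcgr1* and *Mertk* alone (61.4%). With the animal-number block, 824 of 16753 genes were called higher. Higher calls in the lists were then 2 of 8 pan-macrophage, 1 of 19 other resident, 2 of 19 upstream and 1 of 12 lipid-associated genes. Other resident genes had 3 with no filter and 3 to 8, and lipid-associated genes 3 to 8, when a mouse was left out. Upstream genes had 10 without fl/fl replicate 5 and iADKO replicate 6 (3283 of 16769 genes higher), and 14 with library totals (7373 of 16753). With the covariate, log2 fold changes turned in sign for *Mrc1* (-0.016), *Cd163* (-0.020), *Clec10a* (-0.058), *Cbr2* (0.36) and *Mgl2* (0.44). With library totals *Cbr2* was at 0.069 and *Mgl2* at 0.14, and with a mouse left out *Mgl2* ran from -0.16 (without fl/fl replicate 5) to 0.15 (without fl/fl replicate 4). The cause of these shifts was not tested. Calls among all genes were 5154, against 2011 with the animal-number block, 207 with the covariate and 8653 with library totals.

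Replicate numbers occur in both genotypes. Same-numbered libraries deviated together with correlations of -0.026 to 0.22, not all above 0.1, against means of -0.057 to -0.0016 with other numbers. For 3 of 6 numbers the best match was their own. These values do not settle whether the numbers pair the mice, and the main fit did not use them as pairs. With the replicate number as a block, without fl/fl replicate 7, 3 members were higher (*Folr2*, *Mrc1* and *Retnla*). Among 16667 genes tested in that fit, 4833 were called, 2379 of them higher. Depth limits *Timd4* most, with 76 to 143 counts per library.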
